A study of Homo sapiens with 24 samples.

Results

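The genes described here are 10 outputs and feedback inhibitors of the ERK pathway. They are the phosphatases DUSP4, DUSP5 and DUSP6, the adaptor-like inhibitors SPRY2, SPRY4, SPRED1 and SPRED2, the transcription factors ETV4 and ETV5, and PHLDA1. They were chosen by name, as rows whose Ensembl identifier maps to one of these symbols, and all 10 were found among the 61860 identifiers of the deposited tables. The choice was made with earlier results of these data known. Shares and medians set beside those of all genes therefore describe the set and do not test it. Each was counted well enough to be tested in all 4 experiments.

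ERK is the last kinase of a cascade that runs from receptor tyrosine kinases through RAS, RAF and MEK to transcription factors in the nucleus. Active ERK raises transcription of genes whose products shut it off again. DUSP phosphatases take the phosphates off ERK itself, while Sprouty (SPRY) and SPRED proteins act upstream at the level of receptors, RAS and RAF. ETV4 and ETV5 are ETS-family transcription factors that rise with ERK activity in many epithelial tumors. The messenger RNAs of these genes are therefore often read as a measure of ERK output, although RNA levels alone say nothing on the phosphorylation of ERK.

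The study asked whether obesity and the ubiquitin ligase TRIM15 bear on the growth of esophageal adenocarcinoma, and whether YY2 and FOXRED1 act in between. All 24 libraries came from OE33, an established cell line of human esophageal adenocarcinoma, in 4 experiments of 3 treated and 3 control libraries each. The first compared tumors grown for 21 days under the skin of male BALB/c nude mice, bought at 4 weeks of age. The mice had high-fat food (HFD) or normal food (ND) for 8 weeks before the injection and stayed on it while the tumors grew. The methods also give a body-weight threshold for the HFD mice, set from the ND group. The other experiments were on cultured cells. One compared cells given an HA-TRIM15 plasmid with cells given the empty vector (EV). Another compared cells with a short hairpin RNA against the transcription factor YY2 (shYY2) with shControl cells. The last compared cells with a hairpin against the mitochondrial protein FOXRED1 (shFOXRED1) with shControl cells of their own. Plasmids for HA-TRIM15 acted for 48 h and hairpins for 72 h. Nude mice lack mature T cells but keep other host cells. The sources do not say which hairpin of each gene was sequenced, whether the 3 libraries of a group came from separate cultures or separate mice, or how reads of mouse cells in the tumors were handled.

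Library totals ranged from 14299807 to 45994561 counts. The targeted genes followed their labels, with 111, 130 and 181 counts of TRIM15 against 0 in each EV library, 11, 12 and 11 counts of YY2 against 43, 40 and 46, and 183, 207 and 129 counts of FOXRED1 against 322, 259 and 254. Chi-square per gene between replicates of a group, which is 1 for sampling noise alone, lay between 1.46 and 8.00. Both of the widest pairs, at 6.93 and 8.00, held replicate 3 of shFOXRED1. P-values below set a group difference against the spread between libraries, which the fit moderates over all genes. Whether that spread covers separate cultures or mice is not known. An exact test of 1 value with 3 against 3 libraries cannot give a p-value below 0.1. Unless stated otherwise, p-values therefore come from edgeR's quasi-likelihood test, fitted over all genes of an experiment with Benjamini-Hochberg adjustment. Levels are counts-per-million values (CPM) with TMM-scaled library sizes.

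DUSP6, a cytoplasmic phosphatase selective for ERK, had the widest fall of the 10 genes in both knockdowns, and its promoter is printed for that reason. The window comes from the RefSeq promoter table for GRCh38.p14 and runs from 250 bases before to 30 bases after the annotated start, chr12:89352472-89352751 on the minus strand. Capitals mark matches to the octamer of Capicua, a repressor that ERK signaling removes from its targets.

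DUSP6 promoter: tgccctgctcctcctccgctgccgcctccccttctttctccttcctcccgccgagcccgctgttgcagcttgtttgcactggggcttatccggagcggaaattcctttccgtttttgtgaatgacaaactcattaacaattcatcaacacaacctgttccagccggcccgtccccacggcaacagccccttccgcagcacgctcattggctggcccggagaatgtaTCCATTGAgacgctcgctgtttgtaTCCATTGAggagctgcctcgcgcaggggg

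The octamer was searched on both strands in 4 forms, TGAATGAA, TGAATGGA, TCAATGAA and TCAATGGA. At least 1 form was found in 3.77% of the 35116 windows of 300 bases in the table. DUSP6 holds 2 copies of TCAATGGA, read as TCCATTGA on the printed strand, from base -24 to -17 and from base 2 to 9 of the start. This form lies in 0.51% of windows, and of all 35116 windows DUSP6 was the only 1 with at least 2 copies of it. Windows with at least 2 copies were counted for this form only, which is the form that DUSP6 holds. They were not counted for the other forms or for all 4 together, so this count is no test. The table has windows for 6 of the 10 genes, DUSP6, SPRY2, SPRY4, SPRED1, SPRED2 and PHLDA1, and the other 5 held no form of the octamer. The shorter ETS-type letters AGGAAG were found for DUSP6, SPRY2, SPRED1 and SPRED2, but also in 33.6% of all windows. The AP-1 letters TGANTCA were found for SPRED2 and in 7.71% of windows, while CCGGAAG (10.3% of windows), TGACGTCA (1.85%) and the CArG box (1.29%) were found for none of the 6. A match is a description of letters and not a measured binding site.

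Between genes, levels were compared as RPKM, which is CPM divided by the length of a gene's exons in kilobases. In every group the 3 most abundant were DUSP4, DUSP5 and PHLDA1, and the other 7 genes lay well below them. In EV cells PHLDA1 led at 112 ± 0.73 RPKM (SD, n = 3), followed by DUSP4 at 79.1 ± 0.38 and DUSP5 at 45.4 ± 1.2, with the other 7 between 5.81 for SPRED1 and 23.6 for DUSP6. DUSP5, a nuclear phosphatase for ERK, led instead in the ND tumors at 182 ± 5.0 RPKM, ahead of PHLDA1 at 85.4 ± 0.77 and DUSP4 at 51.4 ± 0.45. Across experiments these levels were not tested, since every experiment has its own table and culture. Neighbors in this order whose libraries overlapped were SPRY2 and ETV4 in ND tumors, SPRED2 and ETV4 as well as SPRY4 and SPRY2 in HFD tumors, SPRY4 and ETV4 in HA-TRIM15 cells, ETV4 and SPRED1 in shFOXRED1 cells, DUSP6 and SPRED2 as well as ETV5 and ETV4 in the shControl cells of the FOXRED1 experiment, and PHLDA1 and DUSP5 in shYY2 cells. With the longest transcript in place of all exons as the length, the leading 3 kept their ranks in every group except HFD, where DUSP4 passed PHLDA1.

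The shControl cells of the knockdown experiments were not alike in these genes. DUSP4 stood at 65.5 ± 1.3 RPKM in the shControl cells of the YY2 experiment and at 33.8 ± 0.61 in those of the FOXRED1 experiment, and SPRY2 at 7.02 ± 0.19 and 3.84 ± 0.48. Each knockdown is therefore compared with its own control throughout.

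**Figure D1:**
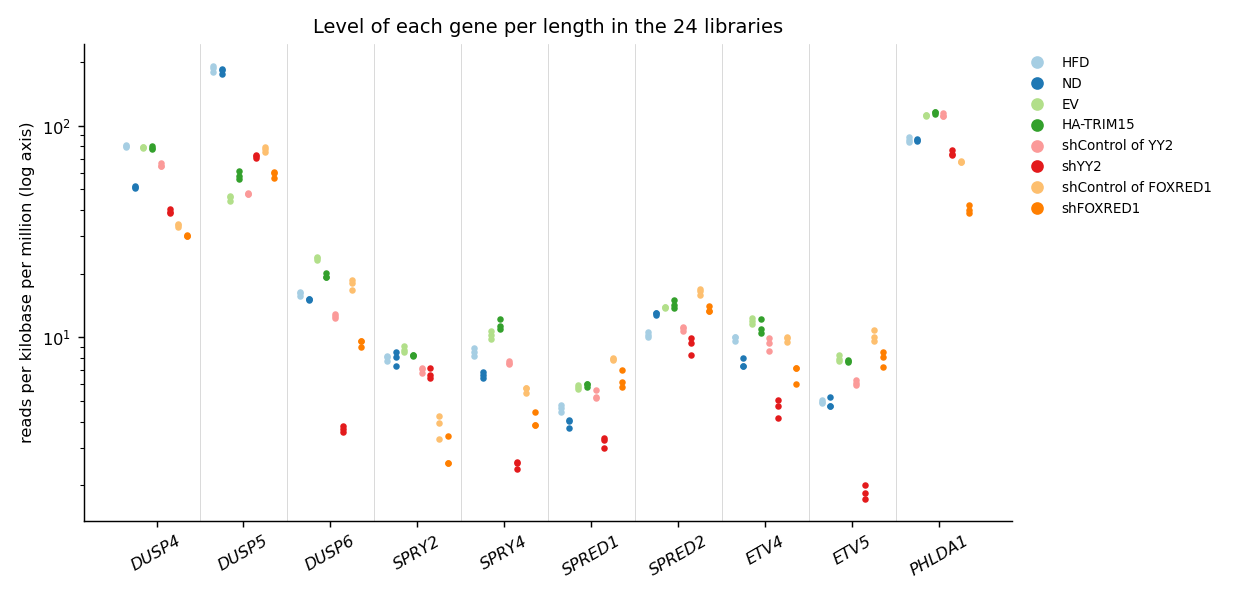
Level of each of the 10 genes in RPKM on a log axis, 1 point per library, colored by group (8 groups of 3 libraries). DUSP4, DUSP5 and PHLDA1 lie above the other genes in all 8 groups. Within each tumor group DUSP5 leads the 10 genes, at 182 RPKM on average in ND and 186 in HFD.

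Knockdown of YY2 lowered 8 of the 10 genes and raised 1. DUSP6, ETV5 and SPRY4 fell by more than 3-fold, ETV4 by 2.04-fold, and DUSP4, SPRED1, PHLDA1 and SPRED2 by less. DUSP5 alone rose, and SPRY2 did not pass the test. YY2 knockdown moved much of the transcriptome, with 38.1% of the 16006 genes tested lower and 36.8% higher at adjusted p under 0.05 (75% in all), and the count of 8 lower is to be read against that share. The median log2 fold change of the 10 genes was -0.77, against -0.01 for all genes tested.

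DUSP6 measured 17.4, 16.9 and 16.4 CPM in the shYY2 libraries and 57.3, 59.0 and 60.5 in the shControl libraries. Its log2 fold change was -1.80 ± 0.051 (SE; edgeR, adjusted p = 4.31e-14), a 3.49-fold lower level, which put it at percentile 94.6 of all genes tested by size of change. The knockdown libraries all lay far under the controls, with a spread of 3.00% of the mean in one group and 2.67% in the other. DUSP4, a nuclear phosphatase that acts on ERK, JNK and p38, measured 286, 281 and 277 CPM against 473, 490.3 and 473. It was 1.70-fold lower (log2 fold change -0.77 ± 0.028, edgeR, adjusted p = 9.39e-13). DUSP5 went the other way, with 187, 182 and 187 CPM in shYY2 and 127, 125 and 125 in shControl. This was a 1.47-fold rise (log2 fold change 0.56 ± 0.029, edgeR, adjusted p = 6.39e-11), so DUSP5 moved opposite to both DUSP6 and DUSP4, with no overlap between groups in any of them.

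SPRY4, a Sprouty protein that restrains signaling from receptors to RAS and RAF, measured 16.6, 16.5 and 15.5 CPM against 49.9, 49.9 and 51.2. The 3.11-fold fall (log2 fold change -1.64 ± 0.052, edgeR, adjusted p = 1.82e-13) left the groups far apart. Its relative SPRY2 measured 19.1, 20.0 and 21.4 CPM against 20.8, 21.9 and 21.7. The SPRY2 groups overlapped (log2 fold change -0.09 ± 0.064, edgeR, adjusted p = 0.223). SPRY1, another Sprouty gene, which is not among the 10 and was added after its values were seen, rose from 9.92 ± 0.72 to 30.2 ± 3.0 CPM (SD, n = 3; 3.04-fold, edgeR, adjusted p = 6.82e-11). SPRED1 and SPRED2 carry the RAS inactivator NF1 to the membrane. SPRED1 fell from 44.6 ± 2.2 to 26.1 ± 1.3 CPM (SD, n = 3), a log2 fold change of -0.77 ± 0.055 (edgeR, adjusted p = 3.52e-09). SPRED2 fell from 57.0 ± 1.5 to 46.8 ± 4.4 CPM (SD, n = 3), a log2 fold change of -0.28 ± 0.057 (edgeR, adjusted p = 0.000315).

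ETV5 measured 9.80, 11.5 and 10.5 CPM in shYY2 and 34.8, 35.7 and 36.8 in shControl, a 3.38-fold lower level (log2 fold change -1.76 ± 0.067, edgeR, adjusted p = 1.46e-12). ETV4 measured 14.7, 18.0 and 16.9 CPM against 34.3, 36.0 and 31.4, and was 2.04-fold lower (log2 fold change -1.03 ± 0.075, edgeR, adjusted p = 3.95e-09). Both ETS factors were thus well below control in each of the 3 libraries. PHLDA1, a pleckstrin-homology-like protein whose RNA follows ERK activity in many cells, fell from 917 ± 19 to 590 ± 17 CPM (SD, n = 3), 1.55-fold lower (edgeR, adjusted p = 1.05e-11). In all, 9 of the 10 genes had groups that did not overlap, while 76.3% of all genes tested did so too. When a 1.5-fold change was required too, 7 genes were lower and 0 higher, where 19.4% and 20.2% of all genes passed.

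The ETV4 gene lies across DHX8, an RNA helicase gene on the opposite strand, and whether reads were assigned by strand is not settled. Summed over the 24 libraries, DHX8 had 45702 counts and ETV4 16237, so that DHX8 held 281% of the ETV4 counts. DHX8 fell by 0.25 ± 0.037 on the log2 scale in shYY2 (edgeR, adjusted p = 1.23e-05) and rose by 0.12 ± 0.037 in HFD (adjusted p = 0.0162), with 0.00 ± 0.039 in HA-TRIM15 and -0.01 ± 0.063 in shFOXRED1. Its part in the ETV4 values was not tested. Antisense or other genes that overlap the remaining members held at most 2.16% of the member's counts, the highest being SPRY4-AS1 over SPRY4.

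**Figure D2:**
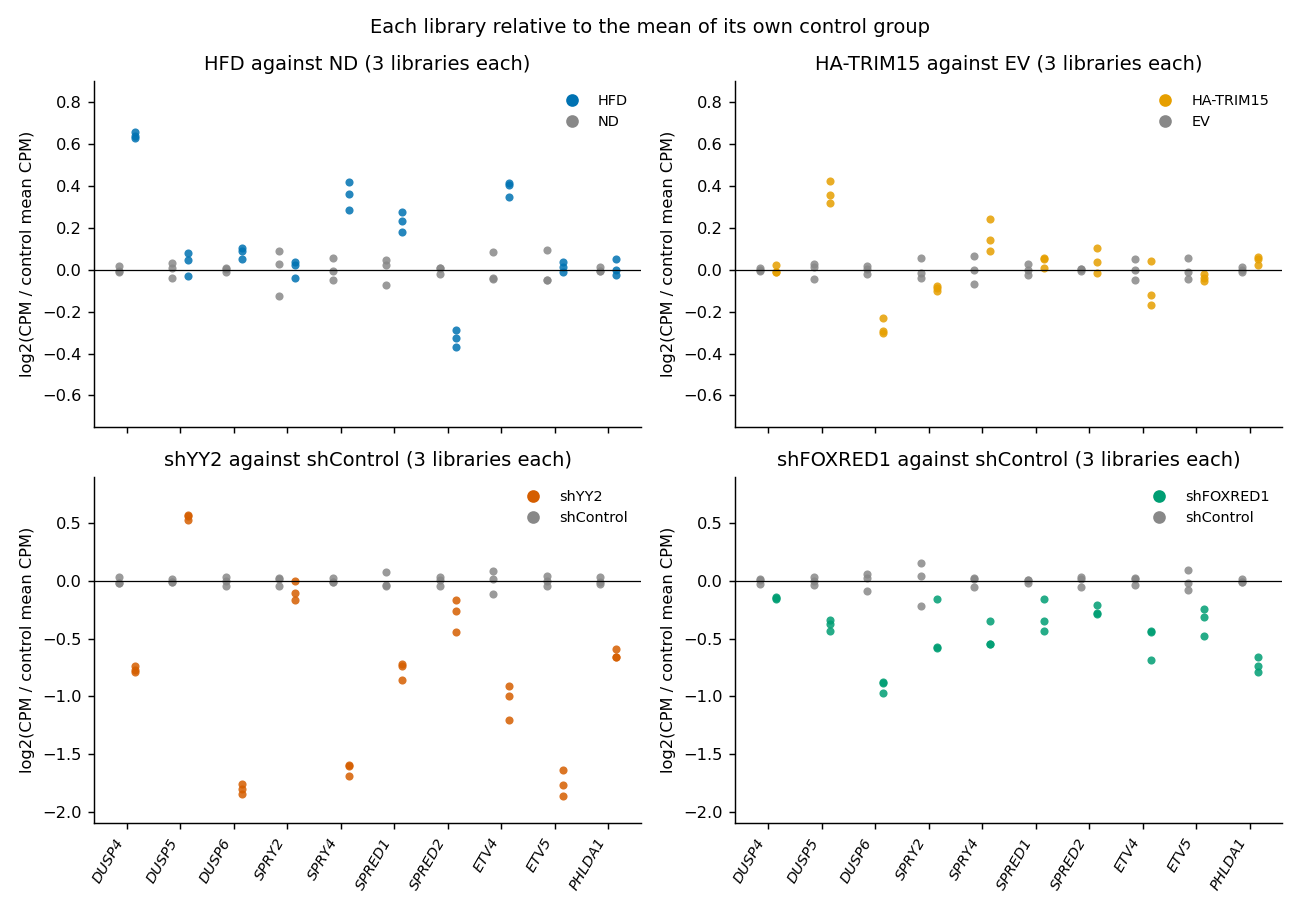
Each library's CPM relative to the mean of its own control group on a log2 axis, for the 10 genes in the 4 experiments. Colored points are treated and gray points control libraries, 3 each, and the lower panels have a wider axis. In shYY2 the DUSP6, SPRY4 and ETV5 points lie far under control (fitted log2 fold changes of -1.80, -1.64 and -1.76), and DUSP5 lies above it.

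Knockdown of FOXRED1, in a separate experiment on OE33 with its own control, left all 10 genes lower at adjusted p under 0.05, including DUSP5 and SPRY2. DUSP6 and PHLDA1 fell the furthest, and the other 8 fell by 1.43-fold or less. Among all 15730 genes tested, 19.7% were lower and 16.8% higher (36.6% in all). The median log2 fold change of the 10 genes was -0.40, against 0.01 for all genes. Without TMM scaling, by total counts only, 2476 genes were lower and 3325 higher in place of 3102 and 2650, and DUSP4 (adjusted p = 0.167) and SPRY2 (adjusted p = 0.0589) no longer passed, leaving 8.

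DUSP6 measured 45.1, 42.3 and 45.1 CPM in the shFOXRED1 libraries and 78.4, 86.5 and 84.5 in shControl. It was 1.88-fold lower (log2 fold change -0.91 ± 0.067, edgeR, adjusted p = 1.7e-08), at percentile 94.7 of all genes tested by size of change. PHLDA1 measured 329, 316 and 346 CPM against 545, 545 and 554, which is 1.66-fold lower (log2 fold change -0.73 ± 0.048, edgeR, adjusted p = 4.51e-09). In both genes all treated libraries lay under all control libraries. DUSP5 measured 151, 157 and 161 CPM against 203, 209 and 199, a 1.30-fold fall (log2 fold change -0.38 ± 0.053, edgeR, adjusted p = 2.26e-05).

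ETV4 measured 26.2, 26.2 and 22.0 CPM against 35.9, 36.1 and 34.6 (log2 fold change -0.51 ± 0.086, edgeR, adjusted p = 0.000162). ETV5 measured 49.97, 42.7 and 47.8 CPM against 58.4, 56.1 and 63.4 (log2 fold change -0.34 ± 0.076, edgeR, adjusted p = 0.00191). SPRY4 measured 25.6, 29.4 and 25.6 CPM against 38.2, 38.0 and 36.2 (log2 fold change -0.48 ± 0.082, edgeR, adjusted p = 0.0002). For these 3 genes every treated library was below every control library. SPRED1 fell from 65.6 ± 0.59 to 53.0 ± 5.2 CPM and SPRED2 from 85.1 ± 2.6 to 71.2 ± 2.2 CPM (SD, n = 3; log2 fold changes -0.31 and -0.26, edgeR, adjusted p = 0.00298 and 0.00317).

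The calls on DUSP4 and SPRY2 were the least firm. DUSP4 measured 222, 224 and 223 CPM against 249.5, 248 and 242.5, so its groups did not overlap, but the difference was small (log2 fold change -0.15 ± 0.049, edgeR, adjusted p = 0.0257). Its adjusted p rose to 0.0804 without shFOXRED1 replicate 1, 0.079 without replicate 2, 0.0931 without shControl replicate 1 and 0.0963 without shControl replicate 2, and to 0.0518 with no filter on low counts. SPRY2 measured 10.5, 7.84 and 7.87 CPM against 12.0, 10.1 and 13.0, and its groups overlapped (log2 fold change -0.42 ± 0.15, edgeR, adjusted p = 0.0312). It stood at 0.127 and 0.0502 without shFOXRED1 replicates 2 and 3 and at 0.0874 and 0.132 without shControl replicates 1 and 3. The other 8 genes stayed lower under each library left out. For 9 of the 10 genes every treated library lay below every control library, and 46.7% of all genes tested had such separate groups in one direction or the other. Only DUSP6 and PHLDA1, 2 of 10, were lower by at least 1.5-fold, which 5.07% of all genes were, and 0 were higher by as much, which 5.75% were.

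Whether the knockdowns differed was tested as a difference of log2 fold changes in 1 fit over all 24 libraries. The experiments share no library, and their shControl cells differed in level. DUSP5 averaged 126 CPM in the shControl cells of the YY2 experiment and 204 in those of the FOXRED1 experiment, and PHLDA1 917 and 548. The part of these starting levels in the differences was not tested. DUSP6, ETV5, SPRY4, DUSP4, ETV4 and SPRED1 fell further with shYY2, while DUSP5, SPRY2 and PHLDA1 were lower with shFOXRED1. Of 17980 genes, 26.7% had a difference below 0 and 28.8% above 0 at adjusted p under 0.05. The widest differences, shYY2 minus shFOXRED1, were -1.37 ± 0.094 for ETV5 (edgeR, adjusted p = 1.39e-13), -1.11 ± 0.091 for SPRY4 (adjusted p = 7.55e-12) and 0.98 ± 0.055 for DUSP5 (adjusted p = 1.54e-15). DUSP6 differed by -0.85 ± 0.069 (edgeR, adjusted p = 7.12e-12) although it was the gene with the widest fall in each experiment. The difference for SPRED2 was 0.02 ± 0.072 (edgeR, adjusted p = 0.859), with log2 fold changes of -0.25 and -0.27 in this fit. Those for PHLDA1 (0.14, adjusted p = 0.0121) and SPRY2 (0.37, adjusted p = 0.0182) no longer passed by total counts only, at 0.357 and 0.0664. The SPRY2 difference was also lost without shFOXRED1 replicate 2 (adjusted p = 0.0774) or 3 (0.0597) and without replicate 3 of its shControl (0.071). FOXRED1 itself measured 19.0, 16.1 and 17.9 CPM in shYY2 against 33.6, 32.1 and 32.6 in its control. In the FOXRED1 experiment it measured 10.1, 11.2 and 8.83 CPM in shFOXRED1 against 17.7, 17.2 and 17.3 in shControl. That shControl level is near the level in shYY2, and levels across experiments were not tested.

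**Figure D3:**
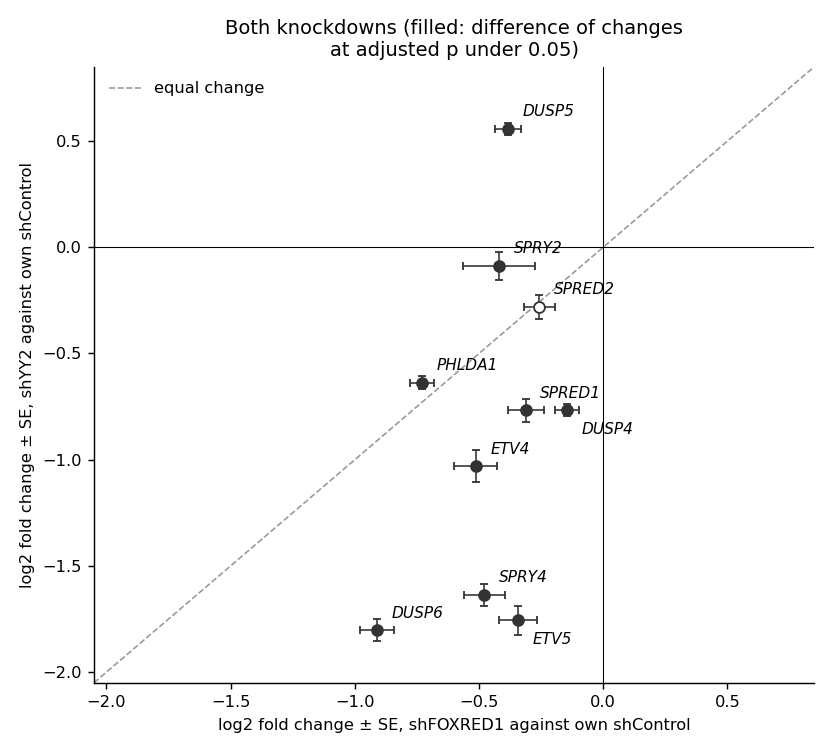
Log2 fold change ± SE (edgeR) of each of the 10 genes with shFOXRED1 (horizontal) and with shYY2 (vertical), each against its own 3 shControl libraries. Filled points have a difference between the knockdowns at adjusted p under 0.05, and the dashed line marks equal change. ETV5, SPRY4 and DUSP6 lie far under the line, DUSP5 far above it, and SPRED2 on it.

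TRIM15 overexpression moved few of the 10 genes, and none by as much as 1.5-fold, where 1.33% of all genes were higher and 0.553% lower by that much. DUSP5 and SPRY4 rose and DUSP6 fell, while the other 7, among them PHLDA1, DUSP4 and both ETS factors, did not pass the test. Of all 15745 genes tested, 12.5% were higher and 9.53% lower, so 3 of 10 called is not far from the overall share of 22.1%. By total counts only, the split of all genes turned from 1973 higher and 1501 lower to 1511 and 2214.

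DUSP5 measured 155, 148 and 144 CPM with HA-TRIM15 and 112, 116 and 118 with EV, 1.29-fold higher (log2 fold change 0.37 ± 0.038, edgeR, adjusted p = 9.91e-06). DUSP6 measured 86.4, 86.8 and 90.8 CPM against 105, 107 and 107.6, and was 1.21-fold lower (log2 fold change -0.27 ± 0.037, edgeR, adjusted p = 0.000111). The groups of these phosphatases did not overlap, and they moved in opposite directions, as they did under shYY2. SPRY4 measured 77.8, 69.9 and 72.4 CPM against 68.7, 65.7 and 62.7 (log2 fold change 0.17 ± 0.048, edgeR, adjusted p = 0.0238). Its call was lost by total counts only (adjusted p = 0.0501), without EV replicate 2 (0.0776) and without EV replicate 3 (0.155).

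DUSP4 measured 565, 553 and 553 CPM against 561, 555 and 557, a log2 fold change of 0.00 ± 0.028 (edgeR, adjusted p = 0.990). PHLDA1 measured 892.5, 918 and 912 CPM against 886, 873 and 879 (log2 fold change 0.05 ± 0.027, edgeR, adjusted p = 0.252). ETV4 had a log2 fold change of -0.07 ± 0.057 and ETV5 of -0.04 ± 0.045 (edgeR, adjusted p = 0.399 and 0.611). For ETV4, the fall passed the test without HA-TRIM15 replicate 1 (log2 fold change -0.14, edgeR, adjusted p = 0.0332). SPRY2, SPRED1 and SPRED2 had log2 fold changes of -0.09, 0.04 and 0.05, none of which passed. DUSP5, DUSP6, SPRY2, SPRY4 and PHLDA1, 5 of the 10, had treated and control libraries fully apart, as did 37.7% of all genes.

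Set against shYY2 in the joint fit, the change with HA-TRIM15 was higher for 8 genes (29.3% of all genes differed in this direction) and lower for DUSP5 (28.2%). SPRY4 differed by 1.76 ± 0.083, ETV5 by 1.68 ± 0.094 and DUSP6 by 1.49 ± 0.066 (edgeR, adjusted p = 1.68e-17, 9.48e-16 and 3.71e-18). DUSP5 rose in both experiments, by 0.23 ± 0.056 less with HA-TRIM15 (edgeR, adjusted p = 0.000891). This comparison shares the shYY2 libraries with the comparison of both knockdowns above.

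In the HFD tumors DUSP4, ETV4, SPRY4 and SPRED1 were higher and SPRED2 was lower than in the ND tumors. DUSP5, DUSP6, SPRY2, ETV5 and PHLDA1 did not pass the test. Of all 17012 genes tested, 25.6% were higher and 23.9% lower, so 5 of 10 called is close to the overall share of 49.5%. Tumors are bulk tissue, in which fewer cells of a type and less RNA per cell cannot be told apart. Epithelial markers (EPCAM, KRT8, KRT18, KRT19 and CDH1) summed to 10710 to 10802 CPM in HFD and 9948 to 10203 in ND. The 6 fibroblast markers summed to 23.7 to 27.0 CPM in HFD and 30.5 to 33.5 in ND, nearly all of it COL1A1, the 5 leukocyte markers to 5.22 to 6.06 and 4.61 to 5.52, and the 4 endothelial and 4 adipocyte markers to at most 0.525 each, with ADIPOQ and LEP at 0 throughout. In the cultured groups, which had no mouse host, the fibroblast markers summed to between 10.5 and 43.9 CPM per library. The leukocyte markers there summed to between 2.08 and 10.8 CPM. The tumor sums of both lists lie within these ranges, so they are no measure of host cells. The part of these markers in the results was not tested.

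DUSP4 measured 591, 603 and 594 CPM in the HFD tumors and 379.8, 387 and 378 in the ND tumors. It was 1.56-fold higher (log2 fold change 0.64 ± 0.032, edgeR, adjusted p = 1.33e-10), and it was the only 1 of the 10 genes past 1.5-fold, where 5.03% of all genes were higher and 6.94% lower by that much. ETV4 measured 37.1, 36.8 and 35.4 CPM against 27.1, 29.5 and 27.0 (log2 fold change 0.38 ± 0.052, edgeR, adjusted p = 1.59e-05), while ETV5 measured 29.4, 28.9 and 29.9 CPM against 31.1, 28.1 and 28.1 (0.02 ± 0.054, edgeR, adjusted p = 0.811). The ETV4 groups were well apart and the ETV5 groups overlapped. SPRY4 measured 57.5, 54.5 and 59.7 CPM against 43.2, 46.5 and 44.5, 1.28-fold higher (log2 fold change 0.36 ± 0.047, edgeR, adjusted p = 8.85e-06).

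The SPRED genes moved in opposite directions. SPRED1 measured 39.0, 40.3 and 37.6 CPM in HFD and 31.6, 34.4 and 33.8 in ND, 1.17-fold higher (log2 fold change 0.22 ± 0.050, edgeR, adjusted p = 0.00156). SPRED2 measured 54.4, 55.8 and 52.9 CPM against 68.7, 67.3 and 68.6, 1.26-fold lower (log2 fold change -0.33 ± 0.040, edgeR, adjusted p = 3.41e-06). Neither pair of groups overlapped. DUSP6 measured 77.3, 76.6 and 74.6 CPM against 72.1, 72.6 and 71.4. Its groups did not overlap either, but the difference was small and did not pass (log2 fold change 0.08 ± 0.037, edgeR, adjusted p = 0.0927). DUSP5 stood at 499 ± 19 and 487 ± 12 CPM, PHLDA1 at 709 ± 20 and 706 ± 4.9 CPM and SPRY2 at 24.9 ± 0.70 and 24.8 ± 1.9 CPM (SD, n = 3 each). In all, 6 of the 10 genes had groups that did not overlap, against 56.2% of all genes tested.

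The scaling bears on the HFD results. By total counts only, the median of all genes shifted by -0.11 on the log2 scale and the split of all genes turned from 4354 higher and 4061 lower to 2800 and 6415. Under that scaling SPRED1 no longer passed (log2 fold change 0.11, edgeR, adjusted p = 0.072), PHLDA1 was lower (-0.10, edgeR, adjusted p = 0.0163), and DUSP5, DUSP6 and ETV5 turned below 0 without passing. DUSP4, ETV4 and SPRY4 stayed higher and SPRED2 lower.

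Between HFD and HA-TRIM15, whose libraries are separate, 6 of the 10 changes differed. The log2 fold change in HFD minus that in HA-TRIM15 was above 0 for DUSP4 (0.65 ± 0.041), ETV4 (0.46 ± 0.093), DUSP6 (0.36 ± 0.056) and SPRY4 (0.20 ± 0.072) (edgeR, adjusted p = 2.71e-13, 0.000288, 8.64e-06 and 0.0385), beside 16% of all genes. It was below 0 for SPRED2 (-0.37 ± 0.068) and DUSP5 (-0.33 ± 0.053) (edgeR, adjusted p = 8.8e-05 and 1.75e-05), beside 12.3% of all genes. In this fit DUSP6 had a log2 fold change of 0.08 in HFD and -0.28 in HA-TRIM15, and DUSP5 of 0.04 and 0.36. The SPRY4 difference was lost in 8 of 12 fits that left out 1 library and by total counts only (edgeR, adjusted p = 0.254). TRIM15 itself had 14, 12 and 24 counts in HFD and 1, 0 and 0 in ND.

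**Figure D4:**
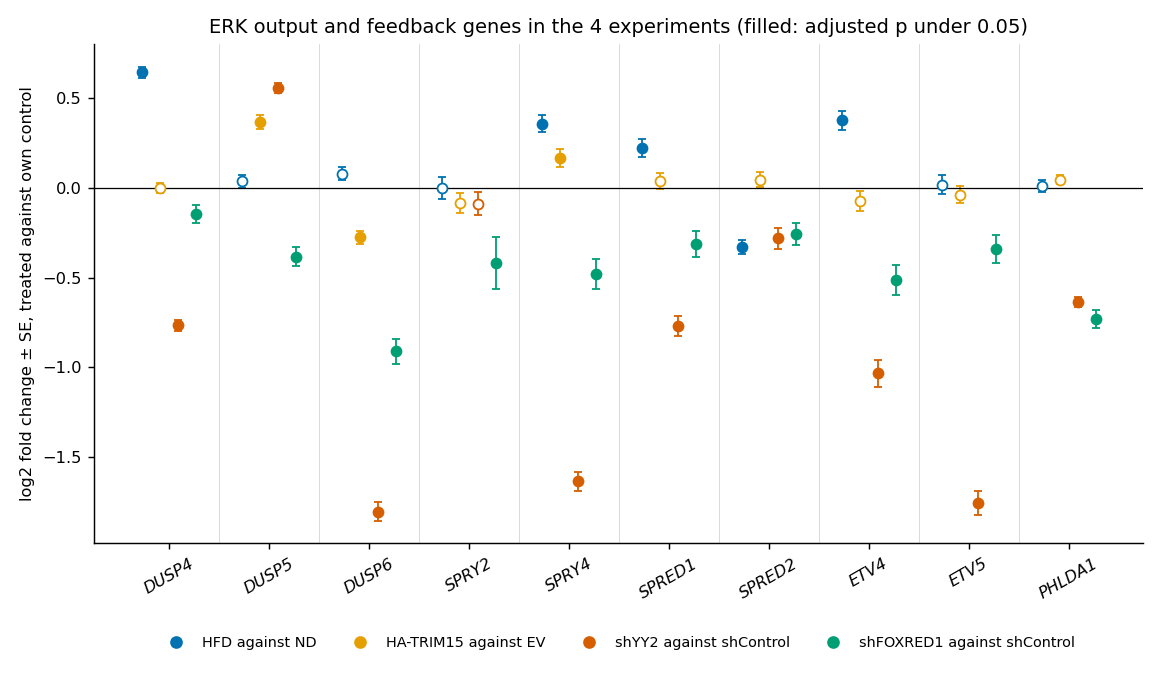
Log2 fold change ± SE (edgeR) of the 10 genes in the 4 experiments, each treated group of 3 libraries against its own 3 controls. Filled points passed adjusted p under 0.05 and open points did not. All 10 shFOXRED1 points are filled and under 0, and shYY2 ranges from -1.80 for DUSP6 to 0.56 for DUSP5.

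Side by side over the 4 experiments, no gene moved one way in all of them. DUSP6 was lower in 3 (HA-TRIM15, shYY2 and shFOXRED1). SPRY4 was higher in HFD and HA-TRIM15 and lower with both hairpins, and DUSP5 was higher in HA-TRIM15 and shYY2 and lower in shFOXRED1. SPRED2 was lower in HFD, shYY2 and shFOXRED1. DUSP4, ETV4 and SPRED1 were higher in HFD, lower with both hairpins and not called in HA-TRIM15. SPRY2, with the lowest counts of the 10 in the FOXRED1 experiment, was called there only.

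The rest of the pathway was described through 91 genes in 5 lists, of which 88 or 89 were tested in each experiment. In shYY2, 46 of these were higher and 33 lower, with a median log2 fold change of 0.16, against -0.77 for the 10 genes. In shFOXRED1 16 were higher and 32 lower, with a median of -0.08. In HA-TRIM15 36 were higher and 11 lower, and in HFD 51 were higher and 15 lower, with medians of 0.08 and 0.23. Of all genes tested, 36.8% were higher and 38.1% lower in shYY2, 16.8% and 19.7% in shFOXRED1, 12.5% and 9.53% in HA-TRIM15, and 25.6% and 23.9% in HFD, and the counts of this list and of its parts below are to be read against those shares. Genes of the lists are named mainly for the experiments with their larger changes, and they may have passed the test in others too.

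Receptors and ligands that start the cascade gave 6 higher and 7 lower of 15 tested in shYY2, 3 and 8 in shFOXRED1, 6 and 2 in HA-TRIM15, and 8 and 5 in HFD. Among them the receptor FGFR3 rose from 8.70 ± 1.4 to 34.1 ± 1.7 CPM in shYY2 (3.92-fold, edgeR, adjusted p = 1.24e-11). FGFR2 rose from 101 ± 2.5 to 159.6 ± 6.9 CPM in shFOXRED1 (1.59-fold, edgeR, adjusted p = 9.56e-08) and fell from 12.4 ± 0.56 to 7.73 ± 1.0 CPM in HFD (adjusted p = 1.51e-05). EGF, a ligand of the EGF receptor, fell 3.03-fold in HFD from 6.94 ± 0.88 to 2.30 ± 0.094 CPM (edgeR, adjusted p = 2.26e-08). HBEGF, another ligand of this receptor, rose from 22.2 ± 0.29 to 33.5 ± 0.94 CPM with HA-TRIM15 (1.51-fold, edgeR, adjusted p = 2.38e-06), where FGFR1 fell by 0.25 ± 0.063 on the log2 scale (adjusted p = 0.0102).

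Adaptors and RAS proteins gave 10 higher and 0 lower of 15 in HFD, 7 and 0 in HA-TRIM15, 7 and 4 in shYY2, and 0 and 3 in shFOXRED1. NRAS, a RAS protein, was the gene of the 5 lists with the largest rise in HFD, from 57.6 ± 0.21 to 134 ± 3.5 CPM (2.33-fold, edgeR, adjusted p = 5.94e-13). The kinases gave 8 higher and 3 lower of 16 in HFD, 2 and 4 in HA-TRIM15, 9 and 7 in shYY2, and 4 and 4 in shFOXRED1. RPS6KA3, a kinase downstream of ERK, rose 1.94-fold in HFD (edgeR, adjusted p = 1.74e-11), and its relative RPS6KA4 fell 3.05-fold in shYY2, from 219.9 ± 6.9 to 72.1 ± 0.73 CPM (adjusted p = 1.78e-15). MKNK2, which ERK activates to phosphorylate a translation factor, rose 2.05-fold in shFOXRED1, from 239 ± 16 to 491 ± 46 CPM (edgeR, adjusted p = 3.03e-09). MAP2K2, the kinase MEK2, fell by 0.25 ± 0.049 on the log2 scale with HA-TRIM15 (edgeR, adjusted p = 0.00243).

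Inhibitors outside the 10 genes gave 12 higher and 4 lower of 19 in shYY2, 5 and 7 in shFOXRED1, 9 and 1 in HA-TRIM15, and 12 and 2 in HFD. In shFOXRED1 the log2 fold changes of these inhibitors ran from -1.08 to 0.71, with more lower than higher. DUSP2, a nuclear phosphatase, was among those that rose there (1.64-fold, edgeR, adjusted p = 0.00319), while DUSP4, DUSP5 and DUSP6 all fell. Nuclear effectors and other outputs gave 12 higher and 11 lower of 24 in shYY2, 4 and 10 of 23 in shFOXRED1, 12 and 4 of 24 in HA-TRIM15, and 13 and 5 of 24 in HFD. FOSL1, an AP-1 protein, fell in both knockdowns, from 375 ± 20 to 80.5 ± 4.3 CPM with shYY2 (4.66-fold, edgeR, adjusted p = 1.15e-15) and from 195 ± 11 to 82.5 ± 6.1 CPM with shFOXRED1 (2.36-fold, adjusted p = 4.33e-10). CCND1, the G1 cyclin D1, fell 3.00-fold with shYY2 and 1.64-fold with shFOXRED1 (edgeR, adjusted p = 1.54e-15 and 2.73e-09), and rose 1.11-fold with HA-TRIM15 and 1.27-fold in HFD (adjusted p = 0.00141 and 1.15e-06).

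EGR2 and EGR3, early growth response factors, rose in shYY2 from 3.33 ± 0.36 to 21.0 ± 1.9 CPM and from 2.85 ± 0.65 to 19.6 ± 1.7 CPM (6.34-fold and 6.89-fold, edgeR, adjusted p = 3.05e-12 and 1.4e-11). They also rose with HA-TRIM15, from low levels, 2.08-fold and 1.84-fold (edgeR, adjusted p = 0.000428 and 0.00194), where FOS fell 1.51-fold (adjusted p = 1.59e-07). FOS rose 3.83-fold in shYY2 (edgeR, adjusted p = 1.19e-16), fell 1.15-fold in HFD (adjusted p = 0.000124) and was not called in shFOXRED1 (adjusted p = 0.0652). ETS1, an ETS factor activated by ERK, fell 3.02-fold in shFOXRED1 and 2.54-fold in shYY2 (edgeR, adjusted p = 7.71e-11 and 4.4e-14), and rose 1.74-fold in HFD and 1.33-fold with HA-TRIM15 (adjusted p = 6.94e-10 and 1.51e-06). ETV1, the relative of ETV4 and ETV5 that was in the lists, fell 2.90-fold in shYY2 (edgeR, adjusted p = 8.55e-11), 2.30-fold in shFOXRED1 (adjusted p = 4.82e-07) and 1.46-fold in HFD (adjusted p = 8.58e-07), where ETV4 rose, and was not called with HA-TRIM15 (adjusted p = 0.141). The receptor EPHA2 fell 2.69-fold in shYY2 and 1.13-fold in shFOXRED1 (edgeR, adjusted p = 7.87e-14 and 0.0237), and rose 1.24-fold and 1.36-fold with HA-TRIM15 and in HFD (adjusted p = 3.29e-05 and 2.86e-07). EPHA4 averaged under 3 CPM in all groups and passed only in shYY2 (log2 fold change -0.83, edgeR, adjusted p = 0.0380).

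**Figure D5:**
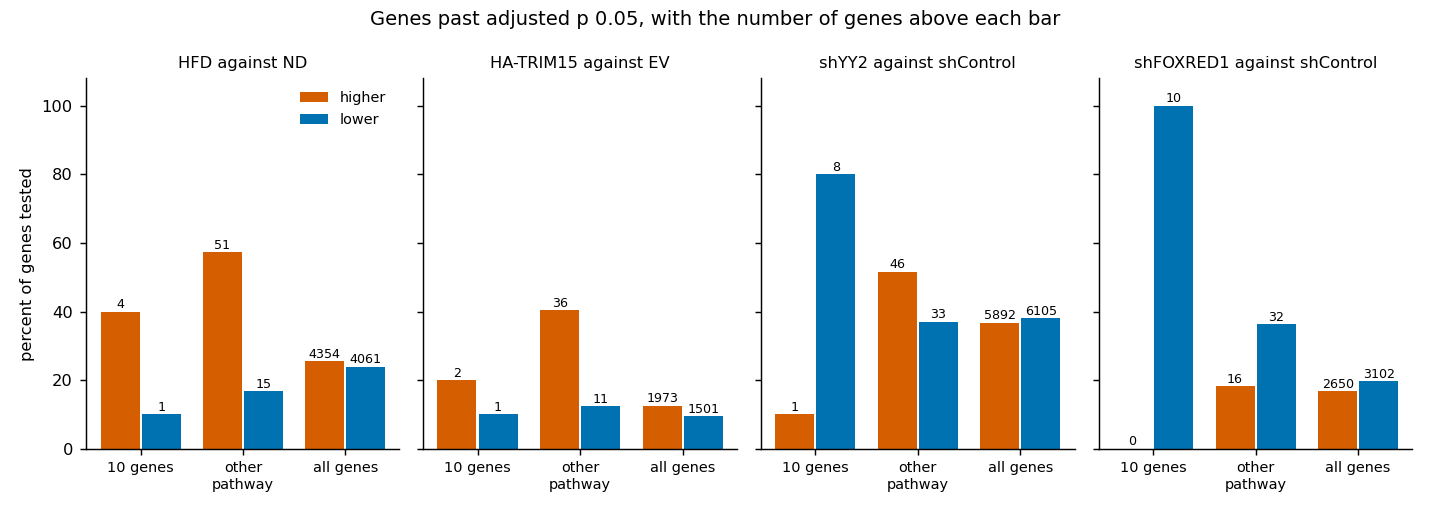
Percent of genes tested that were higher (orange) or lower (blue) in treated libraries at adjusted p under 0.05, for the 10 genes, the other 91 pathway genes and all genes tested, with the number of genes above each bar. The share lower among the 10 genes is 8 of 10 with shYY2 and 10 of 10 with shFOXRED1, beside 38.1% and 19.7% of all genes.

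Likeness of pattern was described by Pearson's r over the 24 libraries of log2 CPM after each experiment's mean was subtracted. These points share experiments and groups, so r reflects mostly the group differences. DUSP6 was most like ETV5 among the 10 genes (r = 0.94), SPRY4 like ETV5 (0.94), SPRED1 and ETV4 like SPRY4 (0.94 and 0.93), PHLDA1 like DUSP6 (0.90), DUSP4 like ETV4 (0.87), SPRED2 like PHLDA1 (0.68) and SPRY2 like PHLDA1 (0.62). DUSP5 stood apart, with 0.15 to its most alike member SPRY2. Over the 45 pairs the median r was 0.61 with a range from -0.63 to 0.94. After each group's own mean was subtracted, the median was -0.02 and the range -0.61 to 0.60. Outside the 10 genes and with each experiment's mean subtracted, DUSP6 was most like RRM2 (r = 0.99), HELLS (0.99) and MCM5 (0.99). These were ahead of all members, with ETV5 at rank 341 of 17979 genes. For the other genes of the set, the most alike member ranked from 113 for ETV4 to 424 for SPRED2, and 7358 for DUSP5. Each of the 10 genes thus had many genes outside the set that were more alike than any member.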

How the data were processed

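Each of the 4 tables that the authors deposited holds raw, unnormalized counts for 61860 Ensembl identifiers. The aligner, counter and annotation are not given in the sources used here, and the submitters' processing notes name the builds hg38 and mm10. The study's methods name a library kit without strand information and the sample labels its directional version, so strand is not settled. In the table of the TRIM15 experiment 3 header cells are empty and the 6 names were taken in turn. Every row had a gene identifier, and 0 value columns were left unused. Symbols were matched for 99.8% of identifiers, and GENCODE 29, used for exon lengths, holds 94.3%. Samples were grouped by the titles and treatment labels.

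Analyses ran in R 4.3.3. Low genes were dropped by filterByExpr at its settings of a minimum count of 10, which it applies as CPM in as many libraries as a group holds, and a total of 15, scaled by TMM and compared within each experiment (6 libraries) with glmQLFTest of edgeR 4.0.16, group only, adjusted over all genes tested at 0.05. The SE was obtained by dividing the log2 fold change by the root of the F statistic. Differences between experiments were tested in 1 fit with 8 group means. DESeq2 1.42.0 was an alternative, and the others are listed in the closing section. The code was tested on simulated data. All 10 genes are named in every comparison, with up to 3 genes in each direction from the pathway lists with the largest change among those past the threshold, at a mean of at least 1 CPM and without overlap of groups, plus CCND1, EPHA2 and EPHA4. The 10 genes, the lists and these rules were chosen with earlier results of these data known.

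Total counts were 19053958 to 45994561 per library in the diet experiment, 15534233 to 26479130 in TRIM15, 16371248 to 19994837 in YY2 and 14299807 to 18522633 in FOXRED1. Whether equal replicate numbers pair libraries was checked by correlating how same-numbered libraries deviate from their groups. Over all genes tested it was at most 0.097 in every experiment. Over genes of at least 10 CPM it was 0.211, 0.125 and 0.41 in FOXRED1, all above the limit of 0.1, while each other experiment had at least 1 number under it. Differently numbered libraries in FOXRED1 gave -0.304 to 0.205 over the same genes. The value of 0.125 lies within that range and 0.211 just above it, so only 0.41, for number 3, stood clear. Neither the labels nor the methods give a reason for such a pairing.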

Additional observations from a re-analysis of the deposited data

How the results depend on the processing

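The alternatives were DESeq2's size factors, scaling by total counts only, dropping the count filter, a stricter filter of 10 counts in each library, DESeq2's Wald test, all 24 libraries in one fit, the replicate number as a block, a fold change of at least 1.5, and leaving out each library in turn. Of 130 values of single genes for each experiment, all 130 kept direction and call in shYY2, 119 in shFOXRED1, 123 in HA-TRIM15 and 114 in HFD. The causes of the changes listed here were not tested. Where a 1.5-fold change was required, the counts of the 10 genes were 1 higher and 0 lower in HFD, 0 and 0 in HA-TRIM15, 0 higher in shYY2 and 2 lower in shFOXRED1. By total counts only, 2 were lower in HFD, 1 was higher in HA-TRIM15 and 1 difference between the knockdowns lay above 0. With 1 library left out, HA-TRIM15 had 1 to 2 higher, 1 without EV replicate 2 (SPRY4 lost) or EV replicate 3 (SPRY4 lost), and 1 to 2 lower, 2 without HA-TRIM15 replicate 1 (ETV4 gained). shFOXRED1 had 8 to 9 lower. With a replicate block, no call and no count of the 10 genes changed, all 10 stayed lower in shFOXRED1, and all genes tested there gave 3157 higher and 3636 lower.

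Signs turned only for values that did not pass, apart from PHLDA1 in HFD by total counts only (-0.10). In HFD, SPRY2 turned above 0 with DESeq2's size factors (5.41e-06), without filter (0.0144), in DESeq2's Wald test (0.0023), with 24 libraries (0.00053), with the replicate block (0.0092) and in 3 fits without 1 library (range of all 6 such fits -0.0462 to 0.0425), DUSP5, DUSP6 and ETV5 below 0 by total counts only (-0.0746, -0.0324 and -0.0924), PHLDA1 with the stricter filter (-0.0032) and without HFD replicate 3 (range of all 6 such fits -0.0117 to 0.0289), and ETV5 without ND replicate 2 (range -0.0103 to 0.0703). In HA-TRIM15, DUSP4 turned in 3 of 6 fits without 1 library (range -0.0122 to 0.0060). The difference of SPRED2 between the knockdowns turned by total counts only (-0.0661) and in 3 of 12 fits without 1 library (range -0.0401 to 0.0934), that of ETV5 between HFD and HA-TRIM15 by total counts only (-0.0245), and that of SPRY2 between HA-TRIM15 and shYY2 in 3 of 12 fits without 1 library (range -0.0647 to 0.0114). SPRED1 between HFD and HA-TRIM15 passed with DESeq2's size factors (0.22, edgeR, adjusted p = 0.0344) and Wald test (0.22, adjusted p = 0.0388). In the FOXRED1 experiment SPRY2 rested on 115 to 219 counts per library.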
